A study of Mus musculus with 2 samples.

Results

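Endothelial nuclei of mouse brown adipose tissue were picked out of 2 single-nucleus RNA sequencing libraries by their transcripts, and 273 of the 4513 barcodes with under 20% mitochondrially encoded UMIs met the criteria. Each UMI stands for 1 captured RNA molecule. A member held at least 3 UMIs summed over 8 genes of vessel-lining cells (Ptprb, Flt1, Cyyr1, Adgrl4, Cdh5, Pecam1, Shank3 and Ushbp1) and at least 2 of these genes. Its sum also exceeded those of Pdgfra, Dcn and Lama2 (fibroblasts), of Postn, Trpc6 and Abcc9 (mural cells), of Mrc1, F13a1 and Cd163 (macrophages) and of Ttn, Neb and Trdn (skeletal muscle). The nuclei were thus chosen by measured UMIs of these genes, whose levels are given as a description. Of the members, 55 came from the 1cyc library and 218 from the TN library, out of 4321 and 2551 deposited barcodes.

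The 1cyc library was made from C57BL/6 mice whose brown adipose tissue was taken 4 days after a brief, acute exposure to cold. The TN library was made from C57BL/6 mice housed at thermoneutrality, that is, warm enough for body temperature to hold without extra heat production. Each library pooled nuclei of 5 mice, which were sorted for DAPI, a DNA stain, and loaded on the 10X Genomics droplet platform. With 1 pooled library per condition no test between the conditions exists, the mouse of a nucleus is not recorded, and effects of the condition and of the library cannot be told apart. Neither the age and sex of the mice nor the length of the cold exposure is given in the sources used here.

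Endothelial cells line all blood vessels. In brown fat they form a dense capillary bed that brings oxygen and fuel to the adipocytes and carries heat away. Vessel growth there is driven by VEGF-A, which adipocytes release and which endothelial cells sense through the receptors encoded by Kdr and Flt1. Capillary endothelium of fat and muscle also anchors lipoprotein lipase through Gpihbp1 and takes up the freed fatty acids with Cd36 and fatty acid binding proteins. The transcription factors Meox2 and Tcf15 are known in mice to drive genes of that transport.

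The 1cyc members held 49469 UMIs, with a median of 746 per nucleus and a range of 269 to 2507. The TN members held 280585 UMIs, with a median of 1084 and a range of 500 to 8114. Levels below are CPM, the UMIs of a gene per 1e+06 nuclear-encoded UMIs of the summed members, so that 1 UMI was worth 21.6 CPM in 1cyc and 3.86 CPM in TN. A count of 0 allows up to 3 UMIs, which is 64.9 CPM in 1cyc and 11.6 CPM in TN. Parentheses hold 95% intervals, which cover counting error only and say nothing of the spread between mice. For levels and ratios they do not cover the spread between nuclei either. The median mitochondrially encoded share of a member was 5.39% in 1cyc and 7.58% in TN. In 1 TN member haemoglobin genes held 5641 UMIs, while no other TN member held more than 12 and no 1cyc member more than 5, so the TN haemoglobin level rests on that nucleus. The libraries shared 6 barcode sequences, none of them a member.

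The genes that stood out most in the members were those of the vessel lining, and they stood out in both libraries. Markers of endothelium that the selection did not use, a list of 26 genes, summed to 11117 CPM in 1cyc members against 345 CPM in all other 1cyc barcodes. In TN they summed to 10057 CPM in members against 420 CPM in all other TN barcodes. Flt1, the VEGF receptor that binds ligand with high affinity and restrains signalling through Kdr, stood at 2141 CPM (1740 to 2607) in 1cyc members and 1913 CPM (1748 to 2089) in TN members. In all other barcodes Flt1 stood at 15.5 CPM in 1cyc and 12.8 CPM in TN. Flt1, like Cyyr1 and Adgrl4 below, is a gene of the selection, which favours such an excess. Cyyr1, which encodes a small membrane protein of little known function, stood at 1795 CPM in 1cyc and 1623 CPM in TN members, against 16.2 and 9.27 CPM in the other barcodes. Adgrl4, an adhesion G protein-coupled receptor of endothelium, stood at 1060 CPM in 1cyc and 1063 CPM in TN members, and at 10.1 and 10.2 CPM in the other barcodes.

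The promoters of these 3 genes, all used in the selection, are shown because they carried the largest excess over the other barcodes among leading genes whose promoter was at hand. Each is 300 bases long, runs 5′ to 3′ across the RefSeq start and is given on GRCm38.p6. That of Flt1 is chr5:147725962-147726261 on the minus strand, that of Cyyr1 chr16:85550324-85550623 on the minus strand and that of Adgrl4 chr3:151437632-151437931 on the plus strand. Capitals mark a match to CAGGAAG or its reverse complement, a form of the site bound by ETS factors such as ERG and FLI1, which are themselves endothelial regulators.

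Flt1: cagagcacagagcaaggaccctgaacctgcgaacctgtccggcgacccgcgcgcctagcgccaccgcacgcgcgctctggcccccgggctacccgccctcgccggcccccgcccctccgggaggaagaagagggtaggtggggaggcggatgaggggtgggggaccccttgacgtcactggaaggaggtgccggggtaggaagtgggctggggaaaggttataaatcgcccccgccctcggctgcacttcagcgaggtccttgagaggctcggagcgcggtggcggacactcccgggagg
Cyyr1: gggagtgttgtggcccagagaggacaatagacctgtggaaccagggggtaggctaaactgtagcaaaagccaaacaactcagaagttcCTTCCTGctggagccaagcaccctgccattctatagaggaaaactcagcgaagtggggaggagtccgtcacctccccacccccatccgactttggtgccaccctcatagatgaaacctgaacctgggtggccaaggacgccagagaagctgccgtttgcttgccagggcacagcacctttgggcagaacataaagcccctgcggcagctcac
Adgrl4: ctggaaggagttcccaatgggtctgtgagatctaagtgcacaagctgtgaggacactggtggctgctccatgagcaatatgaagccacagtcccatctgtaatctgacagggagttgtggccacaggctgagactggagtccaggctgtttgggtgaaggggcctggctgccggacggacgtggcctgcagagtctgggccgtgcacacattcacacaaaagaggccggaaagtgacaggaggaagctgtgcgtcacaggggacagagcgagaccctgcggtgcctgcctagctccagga

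CAGGAAG was searched on both strands and was found in 4 of the 11 leading genes with a promoter in the RefSeq table (36.4%) and in 13.3% of 32851 promoters of the same length. The related form CCGGAAG was found in 0 of these 11 and in 8.86% of all. In Cyyr1 the match lies on the strand opposite to the one printed. A match says that these letters stand in the window, not that a factor binds there. On mm10 in the GENCODE M21 annotation, the protein-coding genes span chr5:147561604-147726011 (Flt1), chr16:85421533-85553397 (Cyyr1) and chr3:151437887-151545086 (Adgrl4), so the RefSeq start of Cyyr1 lies inside the GENCODE gene.

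The 20 genes with the largest excess over the other barcodes, by the lower bound of that ratio in the library where it was smaller, were 7 of the 8 genes of the selection (all but Cdh5) and 13 others. Among the others were receptors and surface proteins (Tie1, the orphan receptor of the angiopoietin system; S1pr1, a sphingosine-1-phosphate receptor; Gpihbp1; Btnl9), the nucleoside transporter Slc28a2, and regulators of the cytoskeleton or of small GTPases (Kank3, Ablim3, Arap3). The list also held the transcriptional repressor Bcl6b, the RNA-binding protein Nova2, the protein kinase Prkch, Samd12 and Ccdc85a. Tie1 had 303 CPM in 1cyc and 348 CPM in TN members, against 2.03 and 3.09 CPM in the other barcodes. Ccdc85a had 1882 CPM in 1cyc and 1901 CPM in TN members, against 29.7 and 22.1 CPM. Of genes with 20 or more UMIs in such a comparison, 34.2% in 1cyc and 22.3% in TN were at least 2-fold higher in members; since transcripts chose the members, nothing is read from these shares.

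**Figure D1:**
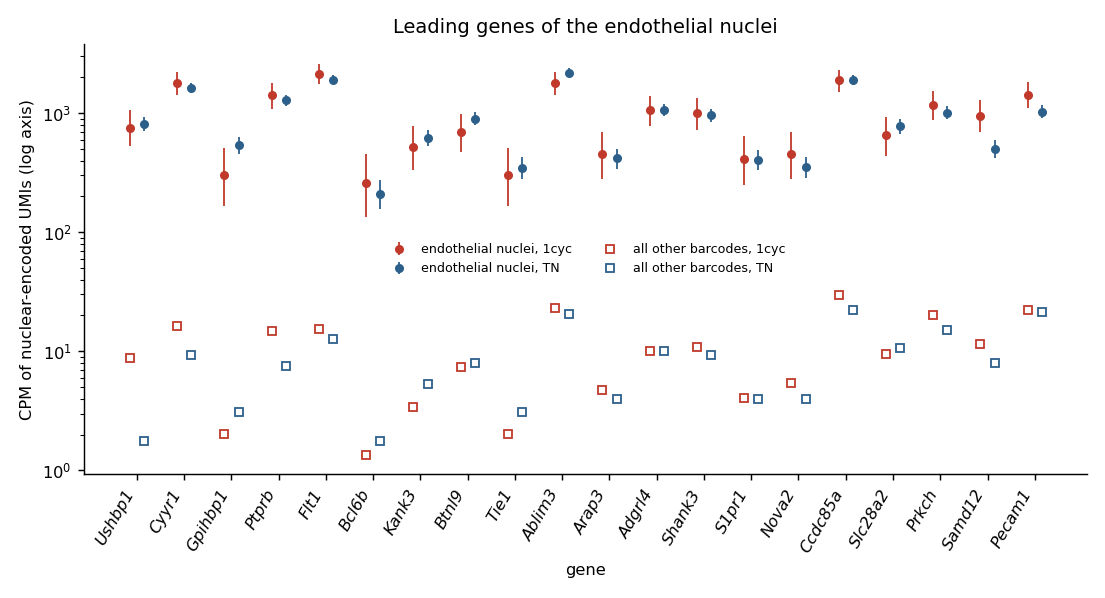
Level of the 20 leading genes in CPM of nuclear-encoded UMIs on a log axis, in endothelial nuclei (filled circles, with 95% counting intervals) and in all other barcodes (open squares) of the 1cyc (red) and TN (blue) libraries. Members of both libraries lie above all other barcodes for each of the 20 genes, as the way of choosing them favours, and Flt1 stood at 2141 CPM in 1cyc and 1913 CPM in TN members.

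Fibroblast, macrophage, skeletal muscle, Schwann cell and mesothelial markers were scarce in the members, while adipocyte transcripts, Ebf1 and Rgs5 were not. Fibroblast, macrophage and skeletal muscle lists held 12, 1 and 1 UMIs in all 1cyc members and 59, 10 and 24 UMIs in all TN members, and the selection itself limited these 3. The Schwann cell and mesothelial lists held 4 and 1 UMIs in 1cyc and 26 and 1 UMIs in TN members. The adipocyte list (Adipoq, Plin1, Lipe, Ppara and others) stood at 3699 CPM in 1cyc members, 0.243 of its level in the other 1cyc barcodes, and at 2500 CPM in TN members, 0.211 of its level in the other TN barcodes. No adipocyte-list UMI was found in 9 of 55 1cyc and 30 of 218 TN members, while 8 and 22 held at least as many adipocyte-list as selection UMIs. Among the other barcodes, 93.2% in 1cyc and 93.4% in TN held no UMI of the 8 genes. The lymphoid list stood at 1968 CPM in 1cyc and 1685 CPM in TN members, 0.590 and 0.429 of its level in the other barcodes. All 91 of its 1cyc UMIs and 433 of its 436 TN UMIs were of Ebf1, a transcription factor of B cells that adipocytes express as well. The mural list stood at 389 CPM in 1cyc and 699 CPM in TN members. These were 1.23 (0.722 to 1.96) and 1.28 (1.09 to 1.49) times its level in the other barcodes. All 18 1cyc UMIs and 133 of 181 TN UMIs of the list were of Rgs5, a pericyte gene. A single TN nucleus held 30 of the 181. The selection also limited Postn, Trpc6 and Abcc9 of this list. The lymphatic markers Prox1, Mmrn1, Lyve1, Reln, Ccl21a and Tbx1 were at 0 in members of both libraries, and most UMIs of that list came from Nrp2, which blood vessels also express.

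The selection had a threshold, and nuclei on either side of it were few. Exactly 3 summed UMIs of the 8 genes were held by 7 of the 1cyc and 18 of the TN members, and the unused endothelial markers stood at 6369 and 8695 CPM in them. Just outside, 9 1cyc and 18 TN barcodes held 2 summed UMIs from 2 genes, with the unused markers at 3319 and 5478 CPM. The median member held 7 selection UMIs over 4 genes in 1cyc and 10 over 5 genes in TN.

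Endothelial nuclei made up a smaller share of the 1cyc library. They were 55 of 2046 barcodes in 1cyc (2.69%, 2.03 to 3.48) and 218 of 2467 in TN (8.84%, 7.75 to 10.0), a ratio of 0.304. Depth moved with this difference, since the deposited barcodes reached down to 262 UMIs in 1cyc and to 500 in TN. With at least 500 UMIs asked of each barcode the shares were 4.22% in 1cyc and 8.84% in TN, and with each barcode thinned to 500 UMIs they were 3.67% and 7.49%, ratios of 0.477 and 0.489. A smaller share in 1cyc was not particular to endothelial nuclei. By the same thresholds on their own markers, 8 of the 2046 1cyc and 28 of the 2467 TN barcodes were mural-marker barcodes. Fibroblast-marker barcodes numbered 48 in 1cyc and 138 in TN, while adipocyte-marker barcodes, at 1636 and 1858, were not a smaller share of 1cyc. All these intervals cover counting only, and 1 pooled library stands behind each share.

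The mitochondrially encoded share of a barcode moved with the endothelial share too, and in opposite ways in the 2 libraries at the high end. Under 2% mitochondrially encoded UMIs, 2 of 517 1cyc barcodes (0.387%) and 4 of 389 TN barcodes (1.03%) were endothelial. Between 2% and 5% the counts were 21 of 567 in 1cyc (3.70%) and 49 of 951 in TN (5.15%). Between 5% and 10% they were 18 of 346 (5.20%) and 99 of 786 (12.6%), and between 10% and 20% they were 14 of 616 (2.27%) and 66 of 341 (19.4%). Above the 20% limit, 2 of 2275 1cyc barcodes (0.0879%) and 19 of 84 TN barcodes (22.6%) would have met the other criteria. The TN share was thus higher in each successive bin, while the 1cyc share was highest between 5% and 10%. With a limit of 5% the shares were 2.12% (1.35 to 3.17) in 1cyc and 3.96% (2.98 to 5.14) in TN, a ratio of 0.536, and with no limit the ratio was 0.142. The 1cyc share was below the TN share under every limit tried, but its size rests on the limit, and the part of depth and of the mitochondrial share in it was not separated further.

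**Figure D2:**
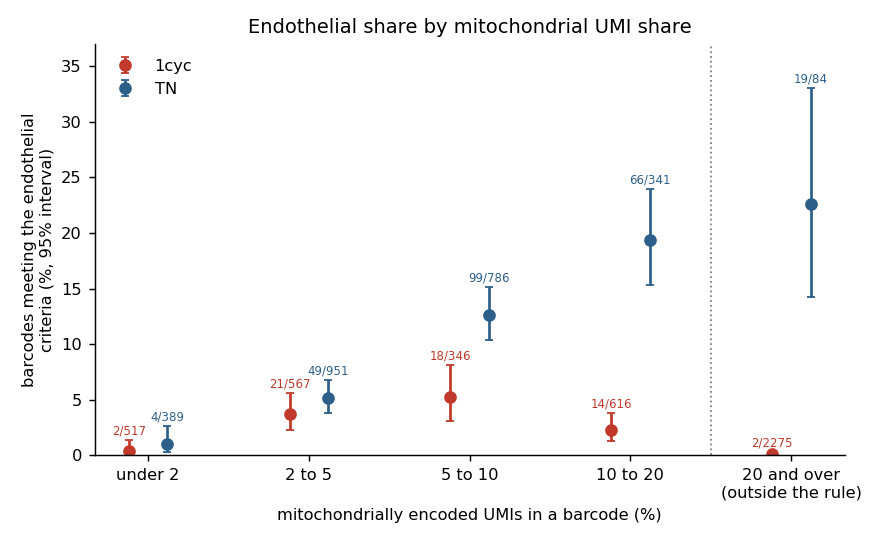
Percent of barcodes that met the endothelial criteria (vertical axis, 95% Clopper-Pearson intervals) against the percent of mitochondrially encoded UMIs of the barcode (horizontal axis, in bins), for 1cyc (red) and TN (blue), with the counts printed above each point. The libraries lie close together under 5% and far apart between 10% and 20%, where 14 of 616 1cyc and 66 of 341 TN barcodes were endothelial; the dotted line marks the 20% limit.

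Most members carried transcripts of capillary endothelium, fewer those of arteries, and fewer still those of veins. Each nucleus was thinned to 500 UMIs, which left out 9 shallower 1cyc members and no TN member, and at least 2 UMIs of a list were asked for. The capillary list (Rgcc, Cd36, Car4, Gpihbp1, Fabp4 and others) was met by 43 of 46 1cyc members (93.5%, 82.1 to 98.6) and 205 of 218 TN members (94.0%, 90.0 to 96.8). The other barcodes met it in 42.5% of cases in 1cyc and 39.0% in TN, as Cd36 and Fabp4 are adipocyte genes as well. The arterial list (Efnb2, Unc5b, Dll4, Sox17 and others) was met by 5 of 46 1cyc members (10.9%, 3.62 to 23.6) and 18 of 218 TN members (8.26%, 4.97 to 12.7), against 0.0957% and 0.489% of the other barcodes. Without thinning, the capillary shares of these same nuclei were 97.8% in 1cyc and 98.2% in TN, and the arterial shares 21.7% and 26.1%. The arterial intervals overlap widely, and a difference between the libraries was not detectable at this depth. The venous list was met by 0 of 46 1cyc members, which allows a share of up to 6.52% by the limit of 3 counts, and by 3 of 218 TN members (1.38%), against 0.670% and 0.711% of the other barcodes. The lymphatic list was met by 2 of 46 1cyc (4.35%) and 10 of 218 TN members (4.59%), mostly through Nrp2. Without thinning, the venous list was met by 0 of these 46 1cyc members and by 7.34% of TN members. The unthinned lymphatic shares were 8.70% in 1cyc and 14.2% in TN. Over all members the venous list held 7 UMIs in 1cyc and 77 in TN, a ratio of 0.509 (0.198 to 1.10). The venous markers Ackr1, Selp, Sele and Vcam1 were at 0 in members of both libraries.

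In TN, arterial and capillary transcripts mostly occurred in the same nuclei. The 20 TN members with at least 4 arterial UMIs had a median of 1943 UMIs and a capillary level of 21245 CPM, and the other 198 TN members, with a median of 998 UMIs, had 20888 CPM. In 1cyc, 5 members held at least 4 arterial UMIs, and 2 of them held at most 2 capillary UMIs, a pattern that 0 TN members had. Another of these 5 held 5 arterial and 3 capillary UMIs at a depth of 480 UMIs, and the rest held 52 and 121 capillary UMIs. The 2 nuclei with at most 2 capillary UMIs, called arterial-marked below, were deep (2151 and 1836 UMIs). They were picked out after their values had been seen. They held 18 and 5 UMIs of Pecam1, an adhesion molecule of endothelial junctions, and 16 and 14 of Mecom, an endothelial transcription factor, but 0 of Flt1. Of Bmx, a kinase known from arterial endothelium, they held 3 and 3 UMIs. Bmx is itself on the arterial list that picked them, and their UMIs of that list were 6 and 8. Of its other genes, Dll4, Unc5b, Jag2, Cxcl12 and Sema3g had 0 UMIs in both nuclei. Efnb2 had 0 and 1, Sox17 2 and 0, and Vegfc 0 and 3 UMIs. Bmx was at 0 in the remaining members of both libraries.

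**Figure D3:**
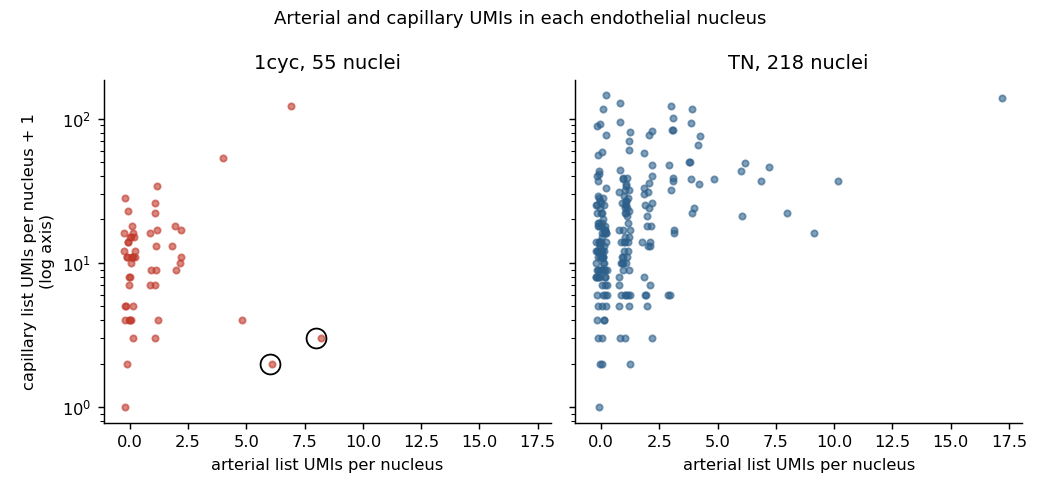
UMIs of the arterial list (horizontal axis, with small random offsets so that points do not hide each other) and of the capillary list plus 1 (vertical axis, log scale) in each of the 55 1cyc (left) and 218 TN (right) endothelial nuclei, unthinned. The circles mark the 2 1cyc nuclei with at least 4 arterial and at most 2 capillary UMIs; in TN the nuclei with many arterial UMIs also held many capillary UMIs.

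Across all genes the ratios of 1cyc over TN in members centred on 1 under the main scaling. How alike the members of both libraries were was not tested. Of 3138 genes with 20 or more UMIs in the 2 sums together, 1570 (50%) had a ratio of 1cyc over TN above 1 and 1568 (50%) below 1, and the median log2 ratio was 0.00. A ratio of 2-fold or more was seen for 534 genes (17%), of which 197 (6.28%) were higher and 337 (10.7%) lower in 1cyc. With TMM scaling, an alternative in which every log2 ratio shifts by -0.35, the split was 70 higher and 592 lower. Low counts weigh on these calls, since the median such gene had 7 UMIs in 1cyc and 33 in TN and 296 of the lower calls rest on 3 or fewer 1cyc UMIs. Among the 144 genes with at least 200 UMIs, 9 (6.25%) were 2-fold apart. In all other barcodes 955 of 10165 genes (9.39%) were 2-fold apart. Of the genes called in the members, 13 of the higher and 31 of the lower were also called in that direction in the other barcodes. The share of all genes called in each direction in the other barcodes was not worked out, so nothing is read from these overlaps.

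The capillary list stood lower in 1cyc members, beyond the shift of the other endothelial markers. The 14 capillary genes summed to 15313 CPM in 1cyc members and 20953 CPM in TN members, a ratio of 0.731 (0.675 to 0.791), and 12 of the 14 had a ratio below 1, against 50% of all 3138 genes. Their median log2 ratio was -0.47, against 0.00 over all genes. In the other barcodes the same list had a ratio of 1.19. Within members under 5% mitochondrially encoded UMIs the ratio was 0.704 (0.630 to 0.785), and within those from 5% to 20% it was 0.664 (0.590 to 0.745), both without the haemoglobin-rich nucleus. Without the 2 arterial-marked nuclei it was 0.789, and with TMM scaling 0.573. A single 1cyc nucleus held 121 of the 708 capillary UMIs, and a single TN nucleus 144 of 5423. The list ratio without those top nuclei was not worked out. The unused endothelial markers had a ratio of 1.11 (1.00 to 1.22) with 10 of 21 measured genes above 1, and 0.867 with TMM scaling, so their direction turned with the scaling; it also differed between the strata, at 0.958 (0.821 to 1.11) under 5% and 1.18 (1.04 to 1.34) from 5% to 20%. Without the 2 arterial-marked nuclei the unused markers stood at 1.03 (0.928 to 1.14). The capillary list was the lower of both lists under either scaling and without these nuclei.

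**Figure D4:**
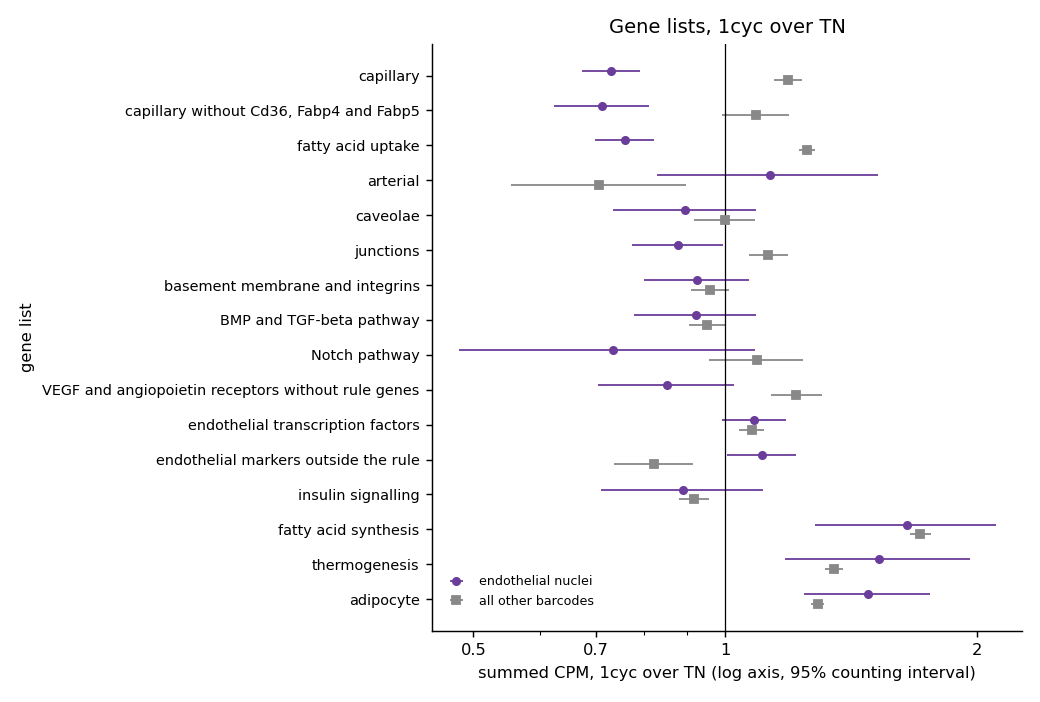
Ratio of summed CPM, 1cyc over TN, for 16 gene lists (log axis), in endothelial nuclei (purple circles) and in all other barcodes (grey squares), with 95% counting intervals. The capillary list lies at 0.731 in endothelial nuclei and 1.19 in all other barcodes, and fatty acid synthesis lies at 1.65 and 1.71.

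Fabp4, Meox2, Aqp1 and Gpihbp1 differed most in CPM among the capillary genes, all lower in 1cyc. Meox2 had 41 UMIs in 1cyc members (887 CPM) and 451 UMIs in TN members (1743 CPM), a ratio of 0.509 (0.360 to 0.701), and in the other barcodes it stood at 45.3 and 58.7 CPM. Aqp1, the water channel of capillary endothelium, had 497 CPM in 1cyc and 1109 CPM in TN members, a ratio of 0.449 (0.280 to 0.687). Gpihbp1 had 303 CPM in 1cyc members and 537 CPM in TN members, a ratio of 0.564 (0.300 to 0.978). Within members under 5% mitochondrially encoded UMIs the ratios were 0.380 (0.212 to 0.637) for Meox2, 0.231 (0.0908 to 0.492) for Aqp1 and 0.497 (0.205 to 1.04) for Gpihbp1. From 5% to 20% they were 0.590 (0.376 to 0.889) for Meox2, 0.636 (0.356 to 1.06) for Aqp1 and 0.525 (0.187 to 1.19) for Gpihbp1, so that the interval lay below 1 in both strata for Meox2 alone of these 3. Without the 2 arterial-marked nuclei the Gpihbp1 ratio was 0.612 (0.326 to 1.06). They were seen in 23, 14 and 9 of 55 1cyc nuclei and in 153, 103 and 72 of 218 deeper TN nuclei.

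Fabp4, a fatty acid binding protein of capillary endothelium and adipocytes, was measured on many UMIs. It stood at 6510 CPM in 1cyc members (301 UMIs in 49 nuclei) and 9903 CPM in TN members (2563 UMIs in 203 nuclei), a ratio of 0.657 (0.581 to 0.741). A single 1cyc nucleus held 85 of its 301 UMIs, and with the top nucleus of each library left out the ratio was 0.490 (0.425 to 0.564). In adipocyte-marker barcodes Fabp4 stood at 1399 CPM in 1cyc and 1188 CPM in TN, so it was not lower there. Fabp5, a close relative, had 0 UMIs in 1cyc members and 30 in TN members, at least 1.79-fold lower against the floor of 3 UMIs.

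For other capillary genes the interval included 1. Cd36, the fatty acid translocase, stood at 3158 CPM in 1cyc and 3018 CPM in TN members, a ratio of 1.05 (0.871 to 1.25). Rgcc, a regulator of the cell cycle and a capillary marker, had a ratio of 1.13 (0.768 to 1.61), Car4, a carbonic anhydrase on the capillary surface, 0.946 (0.467 to 1.76), and Adgrf5, an adhesion receptor, 0.909 (0.648 to 1.25). Differences in either direction remain possible for these. Cd36, Fabp4 and Fabp5 are not specific to vessels, and the capillary list without them stood at 5645 CPM in 1cyc members and 7917 CPM in TN members, a ratio of 0.713 (0.624 to 0.811), with 10 of 11 genes below 1.

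The fatty acid uptake list shares Cd36, Gpihbp1, Fabp4, Fabp5, Meox2 and Tcf15 with the capillary list and so is not a separate observation. It had a ratio of 0.759 (0.699 to 0.823) in members and 1.25 in the other barcodes, with 7 of 10 measured genes below 1. Of the genes it adds, Lpl, lipoprotein lipase itself, stood at 260 CPM in 1cyc and 491 CPM in TN members, a ratio of 0.529 (0.266 to 0.957), against 771 and 572 CPM in the other barcodes. Pparg, the nuclear receptor that drives lipid uptake genes, stood at 2271 CPM in 1cyc and 2237 CPM in TN members, a ratio of 1.02 (0.817 to 1.25). Scarb1, the high-density lipoprotein receptor, had a ratio of 0.650 (0.336 to 1.16), and Acsl1, which activates fatty acids for metabolism, had a ratio of 1.76 (0.958 to 3.09), both with intervals that include 1.

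Receptors of the VEGF and angiopoietin system that the selection did not use lay below 1 by less than 2-fold. The list without Flt1 and Ptprb had a ratio of 0.852 (0.704 to 1.02), with all 6 measured genes below 1. Its ratio was 0.831 (0.687 to 0.998) without the haemoglobin-rich nucleus, 0.672 (0.492 to 0.903) under 5% mitochondrially encoded UMIs and 0.962 (0.752 to 1.22) from 5% to 20%. Kdr, the main signalling VEGF receptor, stood at 541 CPM in 1cyc and 610 CPM in TN members, a ratio of 0.886 (0.556 to 1.36). Tek, the angiopoietin receptor, stood at 519 and 638 CPM, a ratio of 0.814 (0.507 to 1.25). Among the genes of the selection, Flt1 had a ratio of 1.12 and Ptprb, a phosphatase that acts on Tek, 1.09. Of the 8, Cdh5, the cadherin of endothelial junctions, was lowest at 0.566 (0.366 to 0.842), and Pecam1 highest at 1.39 (1.04 to 1.82). Pecam1 stood at 0.982 without the 2 arterial-marked nuclei, 1 of which held 18 of its 66 1cyc UMIs.

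The ligand Vegfa was higher in 1cyc members, on few UMIs. It had 12 UMIs in 1cyc (260 CPM) and 20 UMIs in TN (77.3 CPM), a ratio of 3.36 (1.50 to 7.21). In adipocyte-marker barcodes Vegfa stood at 1540 CPM in 1cyc and 859 CPM in TN, many times its level in the members, and the part of adipocyte RNA in its level in members was not tested. Angpt1, the agonist of Tek, had a ratio of 1.81 (0.828 to 3.66).

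Lists of Notch, junction, caveola, matrix and insulin genes had ratios below 1 by less than 1.5-fold. The junction list had a ratio of 0.878 (0.774 to 0.993) with 10 of 14 measured genes below 1. Within it Ctnnb1, β-catenin, had 3 UMIs in 1cyc members and 71 in TN members, a ratio of 0.237 (0.0476 to 0.720), while Magi1, a junction scaffold, had 1817 CPM in 1cyc and 2125 CPM in TN members, a ratio of 0.855 (0.671 to 1.08). The Notch list had a ratio of 0.735 (0.481 to 1.08) on 29 UMIs in 1cyc and 221 in TN, with all 5 measured genes below 1. It was 0.663 (0.434 to 0.977) with 2 selection UMIs sufficing for a member, 0.576 (0.377 to 0.851) with TMM scaling and 1.03 (0.655 to 1.55) with nuclei thinned to at most 1000 UMIs. The caveolae list had a ratio of 0.896 (0.733 to 1.09). In it Cav1, which encodes the coat protein caveolin-1, stood at 1406 CPM in 1cyc and 1209 CPM in TN members, and Cavin1 and Cavin2, which encode proteins that shape caveolae, had ratios of 0.533 (0.268 to 0.964) and 0.563 (0.314 to 0.943). The basement membrane and integrin list stood at a ratio of 0.925 (0.799 to 1.07), the insulin signalling list at 0.891 (0.710 to 1.11). In the BMP and TGF-beta list, at 0.923 (0.779 to 1.09), Smad1, a transducer of BMP signals, had 5 UMIs in 1cyc members and 92 in TN members, a ratio of 0.304 (0.0965 to 0.736), while Bmp6, a ligand, had a ratio of 1.31 (0.970 to 1.74).

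Among endothelial transcription factors 10 of 25 measured genes had a ratio above 1 and 15 below, and the list had a ratio of 1.08 (0.991 to 1.18). Fli1, an ETS factor, stood at 1817 CPM in 1cyc and 1855 CPM in TN members, a ratio of 0.980 (0.767 to 1.24). Tcf4, the most deeply measured, had 122 UMIs in 1cyc and 656 in TN and a ratio of 1.04 (0.851 to 1.26). Mecom was higher, at 1947 CPM in 1cyc and 1082 CPM in TN members, a ratio of 1.80 (1.40 to 2.29), which was 1.30 without the 2 arterial-marked nuclei. Ets1, another ETS factor, had a ratio of 1.77 (1.15 to 2.66), but 2.49 under and 0.851 above 5% mitochondrially encoded UMIs, so its direction was not the same in both strata. Nos3, the endothelial nitric oxide synthase, stood at 346 CPM in 1cyc and 143 CPM in TN members, a ratio of 2.42 (1.26 to 4.46), with 0.995 and 3.77 in the same strata.

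Lists of other endothelial states were thin. The angiogenic tip list (Pdgfb, Aplnr, Dll4 and others) held 24 UMIs in 1cyc and 185 in TN members, a ratio of 0.726 (0.454 to 1.11), or 0.487 (0.214 to 0.978) under 5% mitochondrially encoded UMIs and 0.902 (0.489 to 1.55) above, and the proliferation list 10 and 45 UMIs, a ratio of 1.24 (0.559 to 2.50). The immediate early list had a ratio of 0.845 (0.621 to 1.13), with 0.543 (0.331 to 0.853) and 1.08 (0.713 to 1.58) in the same strata. In it Egr1, a gene switched on within minutes of many stimuli, stood at 281 CPM in 1cyc and 502 CPM in TN members, a ratio of 0.560 (0.290 to 0.991), and was also lower in the other 1cyc barcodes, at 14.2 against 25.6 CPM. The guidance list had a ratio of 0.977 (0.846 to 1.12), and its best measured gene Sema6a, a semaphorin of the cell membrane, stood at 2012 CPM in 1cyc and 1561 CPM in TN members, a ratio of 1.29 (1.02 to 1.62). Irf1, an interferon-regulated factor, had 11 UMIs in 1cyc and 25 in TN members, a ratio of 2.46 (1.09 to 5.19). The inflammatory endothelium list as a whole had a ratio of 1.18 (0.840 to 1.63), with 2 of 4 measured genes above 1. Apart from Irf1, and from the angiogenic tip list under 5% mitochondrially encoded UMIs, these differences were under 2-fold.

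Genes of fatty acid synthesis stood higher in 1cyc members, at the main settings by about the same factor as in the other barcodes. The list summed to 1860 CPM in 1cyc members and 1128 CPM in TN members, a ratio of 1.65 (1.28 to 2.10), and to 6362 and 3721 CPM in the other barcodes, a ratio of 1.71. In members 5 of 7 measured genes lay above 1. Scd1, the Δ9 desaturase, had 13 UMIs in 1cyc members (281 CPM) and 11 in TN members (42.5 CPM), a ratio of 6.62 (2.73 to 16.3), and stood at 221 and 57.4 CPM in the other barcodes. Its ratio in members was 18.6 (3.97 to 175) under 5% mitochondrially encoded UMIs, on 10 1cyc and 2 TN UMIs, and 2.30 (0.401 to 9.24) from 5% to 20%. Acaca, which commits acetyl-CoA to fatty acids, had a ratio of 1.75 (1.00 to 2.93) in members and 1.88 in the other barcodes. The adipocyte list moved with them, at 3699 CPM in 1cyc and 2500 CPM in TN members, a ratio of 1.48 (1.24 to 1.75), as did the thermogenesis list at 1.53 (1.18 to 1.96). Under 5% mitochondrially encoded UMIs the ratio was 2.20 (1.67 to 2.89) for the adipocyte and 2.26 (1.51 to 3.35) for the thermogenesis list. From 5% to 20% their ratios were 1.17 (0.913 to 1.47) and 1.18 (0.816 to 1.68), with intervals that include 1. The adipocyte ratio was 1.21 (0.970 to 1.50) with at least 5 selection UMIs asked of a member and 1.16 (0.975 to 1.38) with TMM scaling. The fatty acid synthesis ratio was 1.86 (1.27 to 2.71) under 5% mitochondrially encoded UMIs and 1.44 (1.01 to 2.02) from 5% to 20%. It was 1.87 (1.50 to 2.32) with 2 selection UMIs sufficing for a member and 1.35 (0.982 to 1.82) with at least 5 asked. With at least 3 selection genes it was 1.40 (1.04 to 1.84), and with TMM scaling 1.29 (1.00 to 1.65). In members with more selection than adipocyte-list UMIs the fatty acid synthesis ratio was 1.23 (0.873 to 1.69). The part of adipocyte RNA in it was not tested beyond this.

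Among the 12 genes highest in 1cyc by the interval bound nearest to 1, 4 were carried by the 2 arterial-marked nuclei. Sulf1, a sulfatase of the cell surface, had 18 UMIs in 1cyc members and 9 in TN members, a ratio of 11.2 (4.78 to 28.3). Eln, elastin, had 19 and 14 UMIs, a ratio of 7.60 (3.61 to 16.4), Col8a1, a short-chain collagen, 17 and 21 UMIs, a ratio of 4.53 (2.25 to 9.02), and Ptprj, a receptor phosphatase, 11 and 9 UMIs, a ratio of 6.84 (2.58 to 18.7). The 2 nuclei held 10 and 6 of the Sulf1, 2 and 12 of the Eln, 0 and 13 of the Col8a1 and 7 and 4 of the Ptprj UMIs. Without them the ratios were 1.35 for Sulf1, 2.17 for Eln and 1.16 for Col8a1, and Ptprj had 0 UMIs in 1cyc members. Elastin is laid down in the walls of larger vessels, and Col8a1 stood at 703 CPM in 1cyc and 694 CPM in TN mural-marker barcodes. Neither nucleus held a UMI of the mural list.

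Of the remaining genes among these 12, those described here were seen in 7 to 34 1cyc nuclei. Kpna1, a nuclear import receptor, was the best measured, with 69 UMIs in 34 1cyc nuclei (1492 CPM) and 144 UMIs in 91 TN nuclei (556 CPM), a ratio of 2.68 (1.98 to 3.60), and it had a ratio of 2.47 in the other barcodes. In members its ratio was 4.72 (2.85 to 7.90) under and 1.91 (1.24 to 2.87) above 5% mitochondrially encoded UMIs. Il31ra, a cytokine receptor subunit, had a ratio of 4.04 (1.82 to 8.73) in members and 3.76 in the other barcodes. Slc4a4, a bicarbonate transporter, St3gal3, a sialyltransferase, Pfkfb3, an activator of glycolysis, Prdm16, known as a regulator of brown adipocytes and of arterial endothelium in mice, and Scd1 were also among them, with ratios of 3.83, 4.28, 3.95, 4.31 and 6.62 on 10 to 13 UMIs each in 1cyc. Without the 2 arterial-marked nuclei the Prdm16 ratio was 2.34 (0.652 to 6.98), an interval that includes 1. Slc4a4, Prdm16 and Pfkfb3 all stood higher in adipocyte-marker barcodes than in the members of the same library.

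Of the 12 genes lowest by the same bound, 5 had 0 UMIs in 1cyc members. These were Tab2 and Canx (38 TN UMIs each), Fscn1 (37), Krcc1 (35) and Pdxdc1 (31), and against the floor of 3 UMIs they were at least 1.85-fold (Pdxdc1) to at least 2.26-fold (Tab2 and Canx) lower. That floor takes the TN counts as exact; with their counting error included, the upper bounds of the ratio were 0.707 for Pdxdc1 and 0.571 for Tab2 and Canx. Tab2 is an adaptor of TAK1 signalling, Canx the chaperone calnexin and Fscn1 the actin bundler fascin. Gja1, the gap junction protein connexin 43, had 2 UMIs in 1cyc members and 78 UMIs in 47 TN members, a ratio of 0.144 (0.0171 to 0.536), and in the other barcodes it stood at 53.4 and 31.3 CPM. Bst2, an interferon-inducible membrane protein, had 1 and 46 UMIs, and Gab3, a docking adaptor, 1 and 48. Tmsb4x, thymosin β4, which binds actin monomers, stood at 714 CPM in 1cyc and 1437 CPM in TN members, a ratio of 0.497 (0.337 to 0.710), and was lower in the other barcodes as well, at 43.2 and 110 CPM. Aqp1, Meox2 and Ctnnb1, described above, complete the 12.

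**Figure D5:**
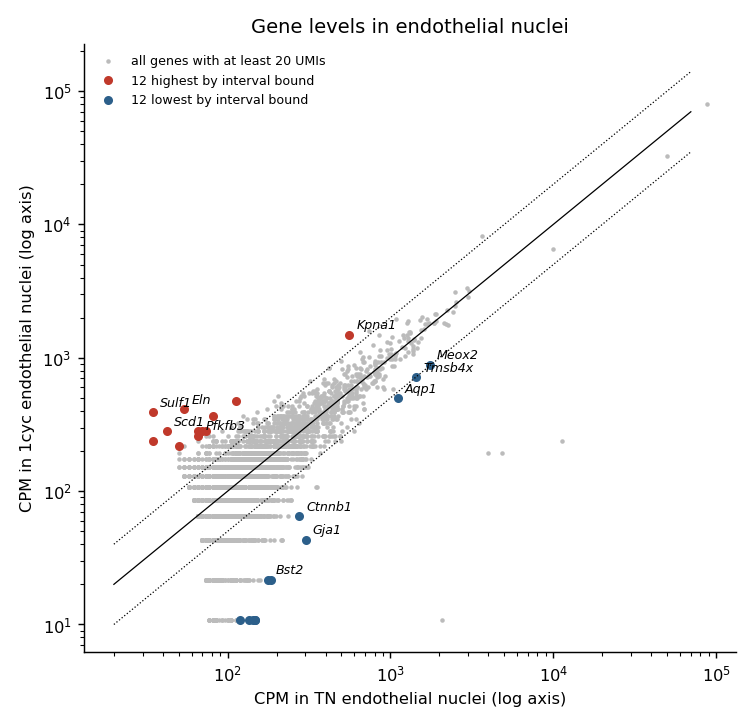
Level of each of 3138 genes in endothelial nuclei of 1cyc (vertical axis) and TN (horizontal axis) in CPM on log axes, with the 12 highest (red) and 12 lowest (blue) genes by interval bound; the solid line is equal level, the dotted lines are 2-fold, and genes with 0 UMIs in 1cyc are drawn on the lowest row. Meox2 and Aqp1 lie near the lower dotted line on many UMIs, Kpna1 lies above the upper one, and the horizontal rows at the bottom are genes with 1 to a few 1cyc UMIs.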

How the data were processed

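The authors deposited unnormalized UMI counts for each gene in each barcode. The submitters' processing notes name Cell Ranger 3 and mm10, and version 3.1.0 stands in the matrix files, per the file headers. Which annotation was used, and if intronic reads entered, is not given in the sources. No doublets were removed in the main values; Scrublet in scanpy 1.11.5 marked 4 of 2046 1cyc and 14 of 2467 TN barcodes, of which 0 and 2 were members.

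UMIs were summed over members per library with Python 3.11.15, and mitochondrially encoded UMIs were left out of the CPM denominator. Ratios have exact conditional binomial, levels exact Poisson and shares Clopper-Pearson intervals (scipy 1.17.1). Only the ratio intervals were tested on simulated data. Those data were independent Poisson counts of summed genes, so the test does not cover UMIs bunched in single nuclei. Comparison was by size alone, for genes with 20 or more UMIs in the 2 sums together.

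Genes were named as members of the fixed lists with at least 10 UMIs, as the 20 leading ones by excess over other barcodes, or as the 12 highest and 12 lowest by interval bound; mitochondrially encoded, ribosomal protein, haemoglobin and Y-linked genes and unnamed gene models were not ranked, and 1 of the 12 highest is not reported here. Members, lists and rules were chosen with earlier results of these data known. Gene positions came from GENCODE M21, which held 31011 of 31053 gene identifiers, and promoters from RefSeq, which held 11 of the 20 leading genes. Alternatives were other mitochondrial limits, thresholds of the selection, depth filters, doublet calls, denominators, TMM scaling (edgeR 4.0.16), thinning, minimum UMIs and leaving out single nuclei.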

Additional observations from a re-analysis of the deposited data

How the results depend on the processing

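No paired analysis was possible because each condition is 1 library. The capillary and the fatty acid uptake ratios were below 1 in all 15 alternatives run for them. Of 1001 values under alternatives, 84 moved beyond the counting interval or by more than 1.5 times for a count. In 1 further value a difference of 2-fold or more was counted as turned round: the erythroid list had a ratio of 1.42 without the haemoglobin-rich TN nucleus. Of the 922 gene and list ratios among these values, 29, from 18 genes or lists, lay on the other side of 1 from the reported value. Among them was the BMP and TGF-beta list at 1.12 with a mitochondrial limit of 5%. For both counts a gene count of 0 was set to 3 UMIs, and list ratios of 0 were left out. A fall to 0 could thus go uncounted, as for Ptprj, which had 0 1cyc UMIs without the 2 arterial-marked nuclei. Low counts also make the counting intervals wide, as at 0.198 to 1.10 for the venous list. The tally of 84 therefore does not show that the other values are stable. The endothelial share in 1cyc was 1.32% with no mitochondrial limit, 1.86% with at least 5 selection UMIs, 4.22% with at least 500 UMIs per barcode and 3.67% with barcodes thinned to 500 UMIs. In TN it was 3.96% with a mitochondrial limit of 5%, 7.15% with 10%, 7.50% with at least 5 selection UMIs and 7.49% thinned. The ratio of the shares was 0.536 with a limit of 5%, 0.142 with none, 0.477 with at least 500 UMIs and 0.489 thinned. Genes 2-fold higher and lower in 1cyc numbered 105 and 105 of 1022 tested with a limit of 5%, 70 and 592 with TMM scaling, 112 and 222 of 2327 with nuclei thinned to at most 1000 UMIs, 568 and 615 of 5313 with at least 10 UMIs, 22 and 54 of 1167 with at least 50 UMIs, 2988 and 1017 of 12892 with no minimum and a pseudocount of 0.5, and 74 and 453 of 2726 with the top nucleus of each gene left out. TMM scaling gave 0.867 for the unused endothelial markers, 0.573 for the capillary and 0.595 for the fatty acid uptake list. The fatty acid synthesis ratio was 1.23 in members with more selection than adipocyte-list UMIs. Thinned to 300 UMIs, the capillary share was 79.6% in 1cyc and 87.2% in TN and the arterial share in TN 4.13%. At 1 UMI of a list, the arterial share was 39.1% in 1cyc and 32.1% in TN and the capillary share in TN 99.1%. The cause of these moves was not tested. Barcode thinning, leaving out single nuclei or the top nucleus, and the capillary list without Cd36, Fabp4 and Fabp5 were chosen after seeing the data. The limits are 1 pooled library per condition, 55 nuclei in 1cyc and unequal depth and mitochondrial shares; most genes are too shallow in 1cyc for a 2-fold difference to be told from counting error.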
